A study of Macaca mulatta with 6 samples.

Results

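The IFIT genes (interferon-induced proteins with tetratricopeptide repeats) were followed in cultured rhesus macaque luteal cells by every probe set of the array annotated to IFIT1, IFIT2 or IFIT3. There were 10 such probe sets, 1 for IFIT1, 6 for IFIT2 and 3 for IFIT3, among 52766 probe sets tested. The probe sets were found by their annotation, but the 3 genes were chosen by their differences between treated and control cultures on these same arrays, which were already known. Their treatment differences are therefore given as a description, and no test of them is reported. The corpus luteum is the gland that ovulation leaves in the ovary and that makes progesterone. It was taken on day 12 after the luteinizing hormone surge and dispersed, and the cells were kept for 24 h on fibronectin in a medium without serum. The medium of the 3 control cultures held 0.1% DMSO, the vehicle, and that of the 3 treated cultures 1 µM T0901317, a compound that activates the liver X receptors (LXRs, nuclear receptors for oxidised cholesterol). Cultures carry replicate numbers 1 to 3, and the design text calls them biological and paired. The labels do not say whether both cultures of a pair came from 1 animal. They name no genotype and no age, and p-values measure the spread between these 6 arrays only. Each culture was a mixture of the cells of the gland, so fewer cells of a type and less RNA per cell cannot be told apart.

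IFIT proteins are made in most cells when type I interferon is sensed. Interferon binds the receptor pair IFNAR1 and IFNAR2, the kinases JAK1 and TYK2 become active, and a complex that holds STAT2 and IRF9 enters the nucleus to switch on the IFIT genes and many others. IFIT1 binds foreign RNA whose cap lacks the methyl marks of host messages, IFIT3 stabilises IFIT1 and joins it in a complex, and IFIT2 takes part in such complexes and has been linked to cell death. In ruminants, interferon tau from the embryo raises interferon-stimulated genes in the corpus luteum; primates lack that signal. LXR agonists are known to lower inflammatory gene expression in macrophages. In the RefSeq gene table for the assembly T2T-MMU8v2.0 the family forms a cluster, with IFIT2, IFIT3, IFIT1B, IFIT1 and IFIT5 following each other and only non-coding loci between them.

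All values are log2 levels, so a difference of 1 is a factor of 2. On all 6 arrays the 10 IFIT probe sets were brighter than 4.63, a reference for dim signal from bacterial control probe sets. Of 5 measured LXR target genes 4 rose with the drug, while 0.113% of all named genes did (limma, adjusted p under 0.05). Their list was chosen with earlier results of these data known, so the rises are a description and no independent check on the drug. The rise of MYLIP, a ubiquitin ligase, was 2.49, 2.04 and 2.65 in pairs 1, 2 and 3, the largest of the 4. On their brightest probe sets the other 3, SREBF1, NR1H3 and LPCAT3, rose by 1.49, 1.24 and 1.07 on average.

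IFIT1, the cap-binding member, was lower with T0901317 in all 3 pairs. On its only probe set (MmuSTS.1579.1.S1_at) the levels with DMSO were 11.42, 8.01 and 11.01 in replicates 1, 2 and 3. With T0901317 they were 10.79, 7.40 and 10.05. Each treated array lay below its own control, while the groups overlapped, because replicate 2 was far below the others in both conditions. The differences were -0.64, -0.60 and -0.95, with a mean of -0.73 ± 0.19 (SD, n = 3 pairs), which is 1.66-fold lower. The lowest and highest DMSO cultures were 3.42 apart, or 10.7-fold, which is 4.67 times the mean treatment difference.

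IFIT3, the partner that stabilises IFIT1, was lower in all 3 pairs on 2 of its 3 probe sets. Its brightest probe set (MmugDNA.24962.1.S1_at) read 12.82, 11.17 and 13.00 with DMSO and 12.48, 10.86 and 12.66 with T0901317. Replicate 2 was again the lowest in both conditions, and the groups overlapped. The differences on that probe set were -0.34, -0.31 and -0.34, with a mean of -0.33 ± 0.02 (SD, n = 3 pairs; 1.26-fold lower), the narrowest spread among the 10 probe sets. The MmugDNA.19594.1.S1_at probe set read 10.48, 8.54 and 10.60 with DMSO and 10.03, 8.32 and 10.19 with T0901317, a mean difference of -0.36 ± 0.13 (SD, n = 3 pairs). The dimmest probe set differed in pair 3. It read 10.01, 8.69 and 9.31 with DMSO and 9.30, 8.26 and 9.47 with T0901317, so the differences were -0.71, -0.43 and 0.16.

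IFIT2 gave different answers on different probe sets. The brightest (MmugDNA.5747.1.S1_at) followed IFIT1 and IFIT3. Its levels were 11.52, 9.07 and 11.61 with DMSO and 10.93, 8.82 and 10.57 with T0901317. The differences were -0.58, -0.25 and -1.04, with a mean of -0.62 ± 0.39 (SD, n = 3 pairs; 1.54-fold lower). All treated cultures lay below their controls, and replicate 2 stood apart from the others in both groups. The MmugDNA.35740.1.S1_at probe set was lower in all 3 pairs too, but nearly all of that lay in pair 1, with differences of -0.94, -0.14 and -0.02. Its levels were 8.70, 7.19 and 7.37 with DMSO and 7.76, 7.05 and 7.35 with T0901317.

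The other 4 IFIT2 probe sets showed almost no treatment difference. Their means ran from -0.09 to -0.01, and their single pair differences from -0.31 to 0.25. Of these, 3 are the _at, _s_at and _x_at versions of one design and are not independent readings; the endings _s_at and _x_at mark probe sets that can match more than 1 transcript. The _at version read 6.90, 6.74 and 6.26 with DMSO and 6.65, 6.90 and 6.08 with T0901317. The fourth, MmugDNA.13561.1.S1_at, has another design and read 8.69, 8.89 and 8.39 with DMSO and 8.60, 9.14 and 8.08 with T0901317. In these 4 probe sets replicate 2 was not low: replicate 3 was the lowest in both conditions. Probe sequences were not used here, so which transcript each probe set reads was not tested.

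**Figure D1:**
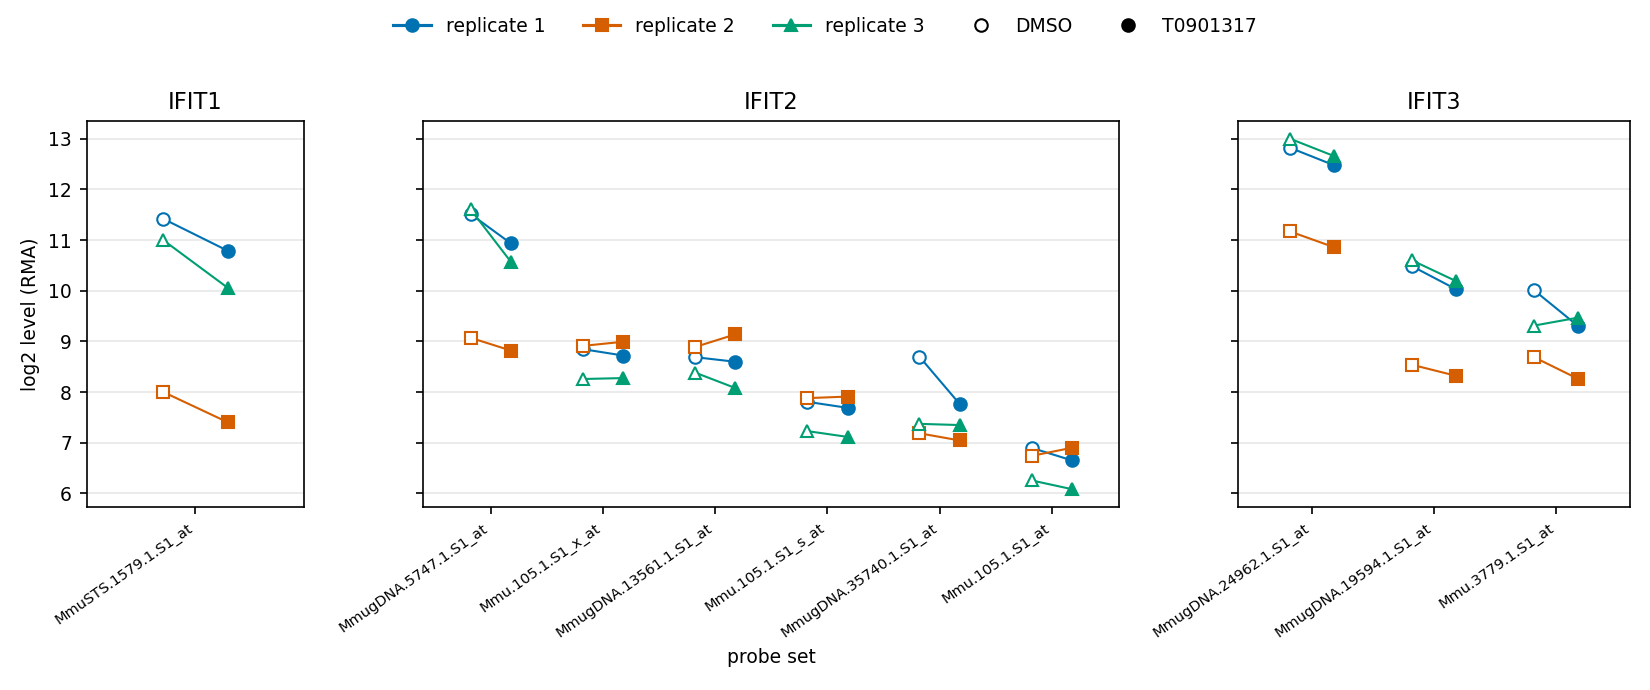
Log2 levels (vertical axis) of the 10 IFIT probe sets (horizontal axis, brightest first within a gene) in each of the 6 cultures; colours and shapes are replicates, open symbols DMSO, filled symbols T0901317, and lines join the cultures of a pair. Replicate 2 (orange squares) lies lowest in both conditions for IFIT1, for all 3 probe sets of IFIT3 and for 2 of IFIT2, but not for the other 4 of IFIT2.

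Over the family, all 10 probe sets had a mean difference below 0 and 5 were lower in all 3 pairs, where 11.1% of all probe sets were. Both counts describe the contrast for which the genes were taken up, and nothing is read from them. Of all probe sets, 0.0853% passed the limma threshold for treatment and 0.0246% passed downwards. Averaged over the brightest probe set of each gene, the difference was -0.52, -0.39 and -0.78 in pairs 1, 2 and 3, with a mean of -0.56 ± 0.20 (SD, n = 3 pairs; 1.48-fold lower). Its value ran from -0.65 to -0.42 in 9 other ways of computing it, the latter with all probe sets of a gene averaged. With all 3 pairs below 0, the mean had to stay below 0 when 1 was left out. Nothing is read from that sign.

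**Figure D2:**
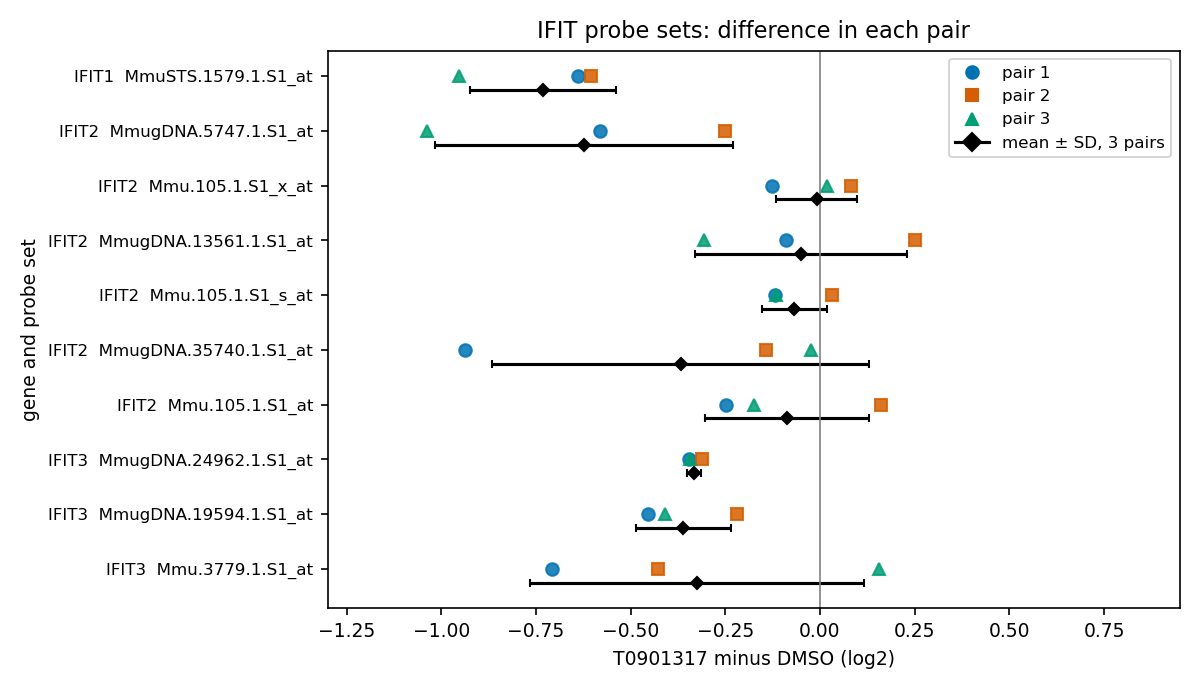
Difference between T0901317 and DMSO (horizontal axis, log2) for the 10 IFIT probe sets (vertical axis); coloured symbols are the 3 pairs and black diamonds the mean with its SD over pairs. The 3 symbols of IFIT1 lie between -0.95 and -0.60, and those of the brightest IFIT3 probe set almost coincide, while 4 probe sets of IFIT2 centre near 0.

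The spread between replicates was tested apart from treatment, with the F test of the replicate number in the same limma fit. All 10 IFIT probe sets passed this test, where 40.2% of all probe sets did, so passing was common. The size of the spread differed among them. Averaged over both conditions, IFIT1 was 11.11, 7.70 and 10.53 in replicates 1, 2 and 3, a span of 3.40 (limma F test, adjusted p = 1.4e-08). The span was 2.28 for the brightest IFIT2 probe set (limma F test, adjusted p = 8.7e-07) and 1.81 for that of IFIT3 (limma F test, adjusted p = 3.8e-08). A span of at least 2 was reached by 2 of the 10, and by 0.984% of all probe sets. The other 2 probe sets of IFIT3 had spans of 1.96 (MmugDNA.19594.1.S1_at) and 1.18, and the MmugDNA.35740.1.S1_at probe set of IFIT2 had 1.12. Replicates 1 and 3 differed little by comparison, by 0.58 for IFIT1, 0.14 for that IFIT2 probe set and -0.18 for that of IFIT3 (replicate 1 minus replicate 3). The span of the other 4 IFIT2 probe sets was 0.65 to 0.78.

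Replicate 2 was the lowest in both conditions for 6 of the 10 IFIT probe sets, where 20.3% of all probe sets had that order, and replicate 3 for 4, where 22.0% had it. The root mean square difference between centred profiles over the 6 arrays, a measure of unlikeness in log2 units, was 0.05 to 0.15 among the 4 IFIT2 probe sets without the dip. Against the brightest IFIT2 probe set it was 1.26 to 1.35 for the same 4. The MmugDNA.35740.1.S1_at probe set lay between, at 0.84 from the brightest and 0.54 to 0.68 from those 4. Its means over both conditions were 8.23, 7.12 and 7.36 in replicates 1, 2 and 3. There replicate 1 stood apart, and replicate 2 was only a little below replicate 3. These numbers are a description over 6 arrays in 3 pairs.

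The paralogs were measured in part. IFIT1B, read by 1 probe set (MmunewRS.225.1.S1_at), had levels of 9.66, 6.01 and 9.45 with DMSO and 8.87, 5.90 and 8.61 with T0901317. Its differences were -0.79, -0.11 and -0.83 (mean -0.58 ± 0.41, SD, n = 3 pairs), and replicate 2 was the lowest in both groups, as for IFIT1. The treatment difference did not pass (limma adjusted p = 0.49). IFIT1 and IFIT1B are close relatives, and shared signal between them was not tested. IFIT5 was not analysed here.

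Profiles across the arrays were compared to find the genes most like the family. Each named gene was represented by its brightest probe set and centred on its own mean, and compared over the 6 arrays with the mean profile of IFIT1, IFIT2 and IFIT3. Of the other named genes the nearest were MX2, a GTPase that blocks retroviruses (root mean square difference 0.22), and OAS2, which makes the messenger that activates RNase L (0.22). They were followed by LOC715706, a provisional symbol (0.34), the phospholipase PLAAT3 (0.36), OAS3 (0.36), the RNA sensor IFIH1 (0.40), IFIT1B (0.41) and MMP12, a macrophage elastase (0.42). Of these 8 genes, 3 (MX2, OAS2 and OAS3) are in the list of other interferon-stimulated effectors; the measured part of that list is 0.234% of all named genes. IFIT1 itself stood at 0.40 from the family's mean and IFIT3 at 0.36, because the dip in replicate 2 was deeper in the former and shallower in the latter.

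MX2 read 10.54, 8.03 and 10.62 with DMSO and 9.97, 7.60 and 10.28 with T0901317. MMP12, a protease, had differences of -0.35, -0.33 and -0.30 and was at -1.57 in replicate 2 from the mean of the other replicates. In both genes each treated culture lay below its control. Further probe sets of MX2 and OAS2 were low in replicate 2 as well, at -2.66 and -1.63 from the mean of the other replicates, whereas the dimmest of OAS3 was at -0.41. Likeness was measured with the treated arrays included, so the treatment differences of these genes are no separate evidence.

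**Figure D3:**
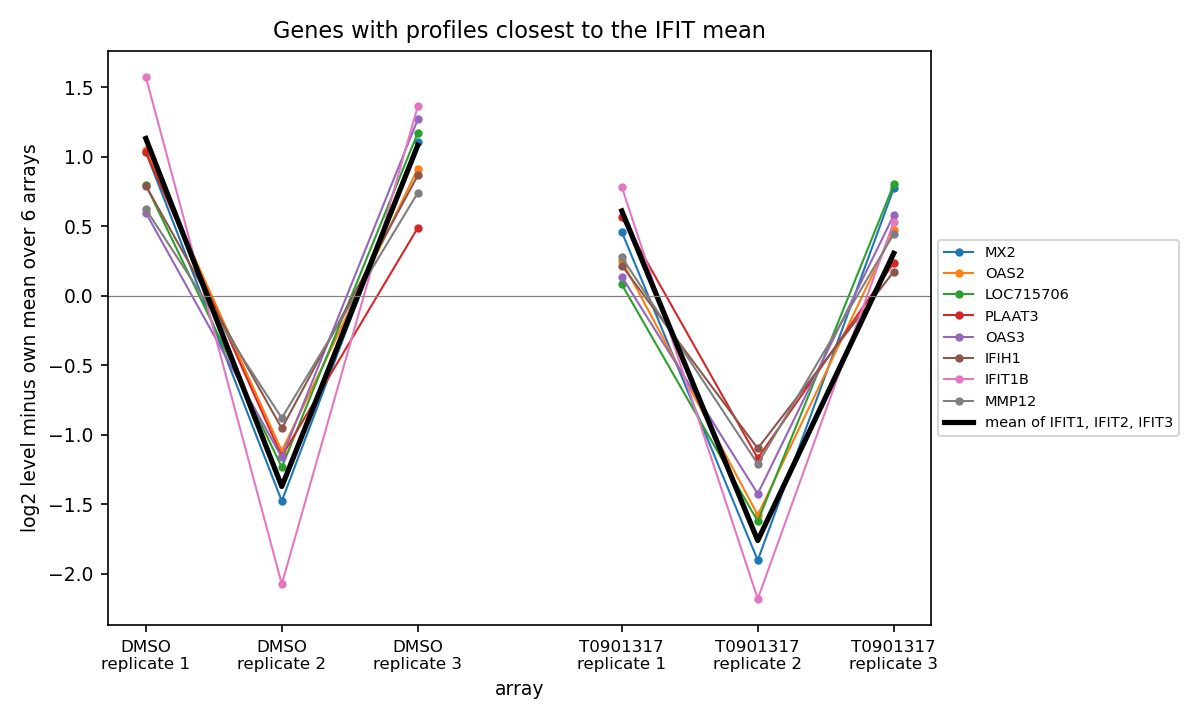
Log2 level minus the gene's own mean (vertical axis) on each array (horizontal axis) for the 8 named genes nearest to the mean of IFIT1, IFIT2 and IFIT3 (thick black line); lines only join the points of 1 gene. All 8 genes dip in replicate 2 under both treatments, IFIT1B the furthest.

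Other interferon-stimulated effectors were lower with the drug in most cases. Their list was also chosen with earlier results of these data known, and it was read on the same arrays as the IFIT genes. The counts and p-values of the effectors are therefore a description, and no separate evidence for the IFIT differences. Of 43 listed, 33 were measured under a name; 3 fell, 0 rose and 30 did not pass, where 0.0637% of all named genes fell (limma, adjusted p under 0.05). Their median difference was -0.31, against -0.02 for all 14132 named genes. In all, 29 of 33 lay below 0, where 58.6% of named genes did, and 25 were lower in all 3 pairs, where 15.8% were. The median was -0.39 in pair 1, -0.11 in pair 2 and -0.41 in pair 3. Pair 2, with the lowest IFIT levels, had the smallest median difference; whether the pairs differ was not tested.

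ISG15, a ubiquitin-like protein that is attached to other proteins, read 11.89, 8.85 and 12.32 with DMSO and 11.14, 8.19 and 11.61 with T0901317. It fell by 0.71 ± 0.07 (limma's SE, n = 3 pairs; limma adjusted p = 0.0020). CMPK2, a mitochondrial nucleotide kinase, read 10.92, 7.27 and 10.15 with DMSO and 10.18, 6.84 and 9.04 with T0901317, a fall of 0.76 ± 0.12 (SE; limma adjusted p = 0.047). MX1, an antiviral GTPase, read 11.19, 9.77 and 11.58 with DMSO and 10.59, 9.28 and 11.17 with T0901317. It fell by 0.50 ± 0.07 (SE; limma adjusted p = 0.033). In all 3 genes replicate 2 was the lowest in both groups, by an amount larger than the treatment difference.

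The effector calls changed when a replicate was left out and with the processing. A fit without a replicate has fewer arrays from which to estimate the spread, so its calls are less certain. Without replicates 1, 2 and 3 the differences were -0.69, -0.73 and -0.70 for ISG15 and -0.45, -0.50 and -0.55 for MX1. Those of CMPK2 were -0.77, -0.92 and -0.58. Without replicate 1 only ISG15 passed, without replicate 2 there were 5 calls, and without replicate 3 there were 10, all downwards; the call of MX1 was lost without replicate 1 (limma adjusted p = 0.38) and without replicate 2 (limma adjusted p = 0.059), and that of CMPK2 without replicate 1 (limma adjusted p = 0.23). The calls of MX1 and CMPK2 were also lost after quantile normalization (limma adjusted p = 0.093 and 0.18), after cyclic loess (0.053 and 0.21) and with the mean of probe sets (0.052 and 0.078), and that of ISG15 without a variance trend (0.16), where 0 passed. Without the replicate block 0 passed in limma, and 0 had an unadjusted p under 0.05. The 4 effectors above 0 were PLSCR1 (0.38), TNFSF10 (0.16), DDX60L (0.11) and DDX60 (0.02), named here after their values were seen, and none of them passed. Across the list, 21 of 33 had replicate 2 lowest in both conditions, against 18.2% of named genes, and 29 passed the replicate F test, against 46.2%.

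**Figure D4:**
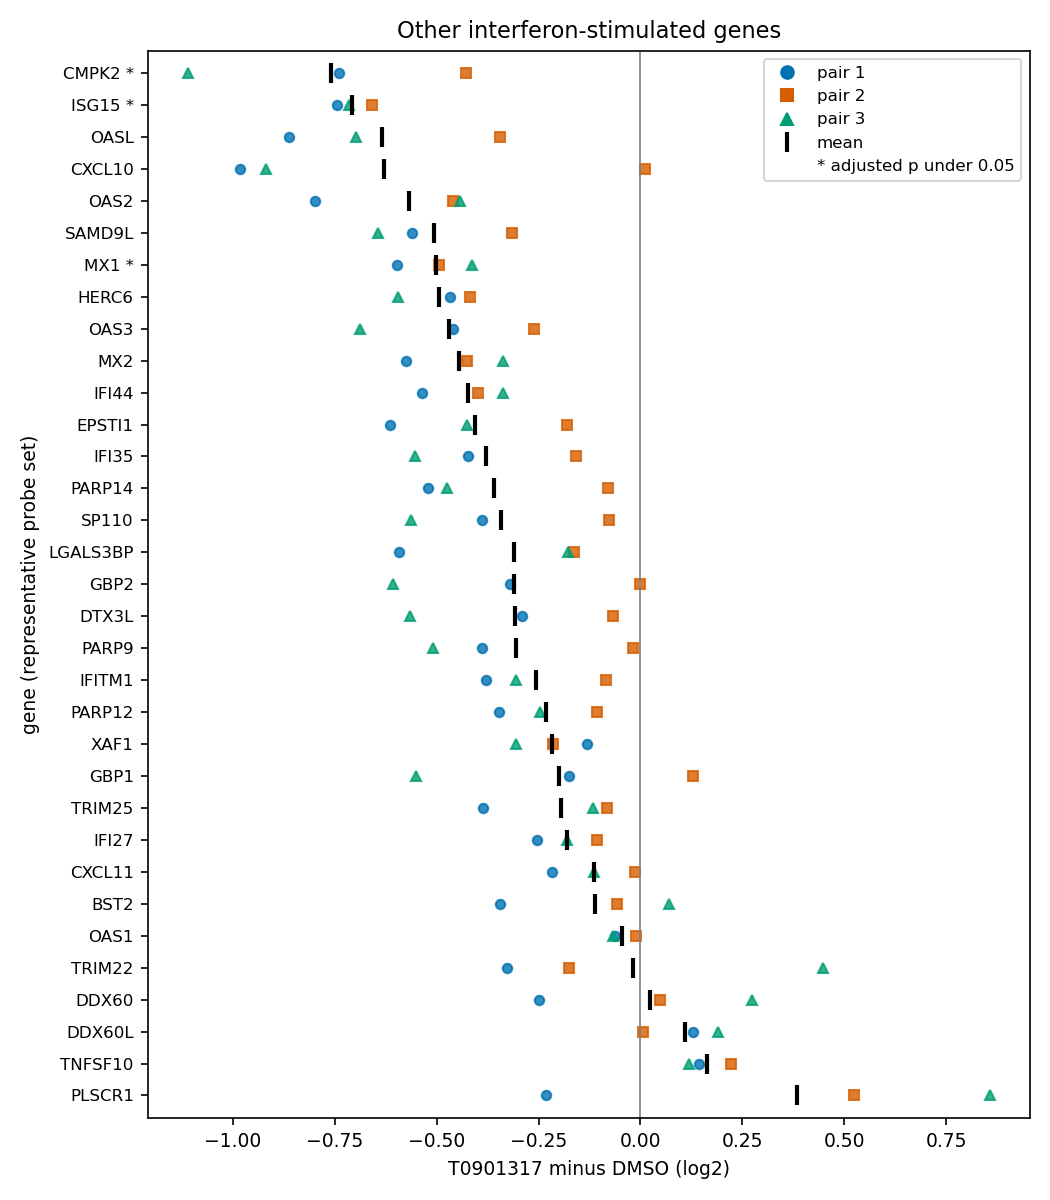
Difference between T0901317 and DMSO (horizontal axis, log2) for the 33 measured interferon-stimulated genes outside the IFIT family (vertical axis, brightest probe set of each); symbols are the 3 pairs, black bars the means and asterisks an adjusted p under 0.05. The means of 29 genes lie left of 0, and the median difference is -0.11 in pair 2 (orange squares) against -0.39 and -0.41 in pairs 1 and 3.

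Genes upstream of the IFIT family did not pass for treatment. In 4 lists 24 were measured. Limma called 0 of them, where 0.113% of all named genes rose and 0.0637% fell. Calls were so rare over all genes that this 0 says little. An unadjusted p under 0.05 (limma) was reached by 4 of the 24, against 3.73% of all named genes. The signalling list had 3 of 7 genes measured under a name and a median of -0.10. IFNAR2, a receptor chain, had -0.12 ± 0.09, TYK2, a receptor kinase, 0.12 ± 0.12, and STAT2, a transcription factor of the pathway, -0.10 ± 0.11 (SE; limma adjusted p = 1.0 for each). STAT2 levels lay within a narrow band, 6.96, 7.05 and 7.16 with DMSO and 6.86, 6.90 and 7.11 with T0901317, with no dip in replicate 2. IRF9, IFNAR1 and JAK1 were not analysed here.

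The 13 sensors, adaptors and factors that lead to interferon had a median of -0.09, with 10 below 0. The largest differences were those of the RNA sensors IFIH1 (-0.47 ± 0.10, SE; limma adjusted p = 0.32) and RIGI (-0.42 ± 0.13, SE; limma adjusted p = 1.0). IFIH1 read 10.83, 9.08 and 10.90 with DMSO, and RIGI 7.74, 6.46 and 7.24, so both were lowest in replicate 2. IRF7, a factor that amplifies the response, was split between probe sets as IFIT2 was. Its brightest had -0.06 ± 0.09 and no dip, while the other read 8.23, 7.19 and 8.69 with DMSO and differed by -0.41 ± 0.11 (SE; limma adjusted p = 0.69).

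Among the interferons themselves, IFNB1, the ligand that many cell types make first, was dim. Its levels were 5.65, 4.31 and 5.71 with DMSO and 4.63, 4.28 and 4.85 with T0901317, so 3 of the 6 arrays, both of replicate 2 and the treated one of replicate 1, lay below the reference for dim signal. Differences against such levels have no exact size and are not given. In pair 3, where both arrays lay above that reference, the difference of IFNB1 was -0.86. IFNB1 did not pass (limma adjusted p = 0.87). IFNK lay below that reference on all 6 arrays, so its difference is not given either. The 4 interferon genes measured had a median of -0.06, with 2 of them below that reference on average. The 4 negative regulators had a median of -0.02, with SOCS1, an inhibitor of the receptor kinases, at 0.19 ± 0.16 and PIAS1, a SUMO ligase, at -0.16 ± 0.10 (SE; limma adjusted p = 1.0 for both).

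Markers of the cell types that the cultures could hold were set beside these patterns. STAR, which brings cholesterol into mitochondria for steroid synthesis, read 10.97, 11.48 and 10.54 with DMSO, and the 4 luteal markers measured were all above the reference for dim signal; CYP11A1 and LHCGR were not analysed here. Of 46 measured markers in 8 lists, limma called 0 for treatment, where 0.113% of all named genes rose and 0.0637% fell. This 0 too says little. An unadjusted p under 0.05 (limma) was reached by 8 of the 46, against 3.73% of all named genes. On average 4 of the 46 lay below the reference for dim signal, where differences have no exact size. They were 2 of 7 for neutrophils and blood cells, 1 of 5 for T and NK cells and 1 of 8 for endothelial cells. The lists' median differences were -0.24 for pericytes and smooth muscle, -0.20 for neutrophils and blood cells, -0.13 for luteal cells, -0.09 for T and NK cells, -0.07 for fibroblasts, -0.02 for macrophages, 0.08 for plasmacytoid dendritic cells (2 genes) and 0.22 for endothelial cells. The 2 members of largest difference were CSPG4 (-0.36) and CNN1 (-0.33) for pericytes and smooth muscle, S100A9 (-0.56) and PPBP (-0.49) for blood cells, INHA (-0.21) and HSD3B2 (-0.18) for luteal cells, and CD7 (-0.28) and GNLY (-0.19) for T and NK cells. They were DPT and LUM (-0.16 each) for fibroblasts, TYROBP (-0.29) and FCGR3 (-0.27) for macrophages, TCF4 (0.27) and GZMB (-0.12) for dendritic cells and CDH5 (0.39) and CLDN5 (0.24) for endothelial cells.

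The marker lists did not share one order of replicates. Replicate 2 was the lowest in both conditions for 6 of the 46 markers, where 18.2% of all named genes had that order. Of these 6, 3 were among the pericyte and smooth muscle markers (4 measured of 7 listed) and 0 among the 10 of macrophages. The mean level of the macrophage markers was 7.30, 8.49 and 8.29 with DMSO and 7.18, 8.39 and 8.29 with T0901317, lowest in replicate 1; by their means over both conditions 4 of the 10 were highest in replicate 2 and 6 in replicate 3. That of the pericyte and smooth muscle markers was 9.58, 8.74 and 8.94 with DMSO and 9.27, 8.61 and 8.63 with T0901317, lowest in replicate 2 in both conditions. That of the T and NK cell markers was 7.94, 8.09 and 8.81 with DMSO, highest in replicate 3. RNA quality was taken as the 3' minus 5' difference of control transcripts, which is larger where RNA is more degraded. It was 0.83, 0.76 and 1.89 with DMSO and 1.00, 0.69 and 1.30 with T0901317. The difference was thus largest in replicate 3 and smallest in replicate 2 in both conditions. With this difference as a covariate, 7 of the 10 IFIT probe sets passed the replicate F test in place of all 10. The share of all probe sets that passed was 19.4% in place of 40.2%. The part of cell makeup or RNA quality in the IFIT values was not tested further; the family's mean difference was -0.49 with RNA quality as a covariate.

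**Figure D5:**
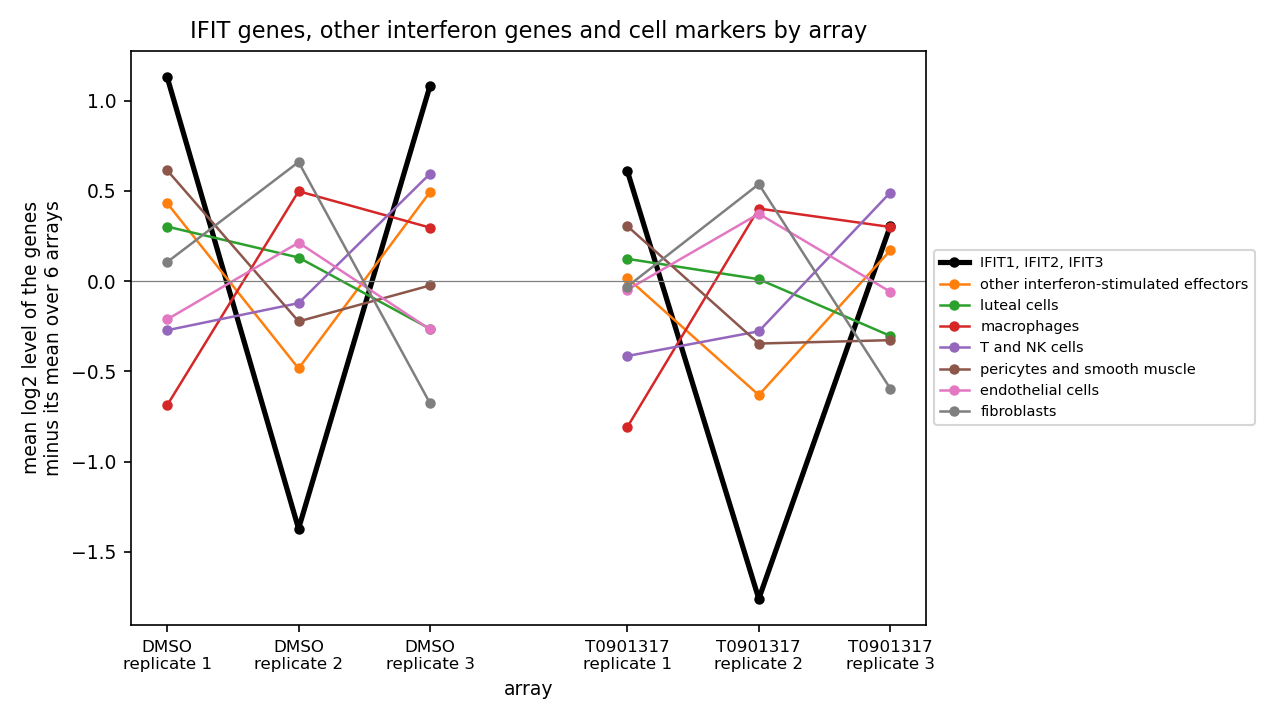
Mean log2 level of gene groups minus the group's mean over the 6 arrays (vertical axis) on each array (horizontal axis), for the brightest probe sets of IFIT1, IFIT2 and IFIT3 (thick black line), other interferon-stimulated effectors and 6 marker lists; lines only join the points of 1 group. The IFIT line and the effectors dip in replicate 2 in both conditions; the pericyte and smooth muscle markers are also lowest there, by less, while the mean of the macrophage markers is lowest in replicate 1.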

How the data were processed

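The deposited values are log2 levels made with RMA, per the submitters' processing notes; its version and the build behind the array are not given in the sources used here. Of 52865 probe sets, 99 controls were left out. The platform annotation gave 1 symbol to 24956 of the rest, several to 361 and none to 27449; 24616 gene numbers were in the RefSeq table, which changed 0 symbols. For a gene with several probe sets, the brightest on average was used. The dim reference is the 95th percentile of the means of 42 Bacillus controls.

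Treatment and replicate number were fitted together with limma 3.58.1 (R 4.3.3), with eBayes and a variance trend. Two-sided p-values were adjusted (Benjamini-Hochberg) over 52766 probe sets, with a threshold of 0.05. The pairing comes from the design text; same-numbered arrays had correlated deviations from their group means (0.66, 0.81 and 0.83). No 2 arrays shared more than 0.327% of values exactly. Array medians were 5.54 to 5.71. Array number limits the precision.

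The fit was tested on simulated data for this comparison (52766 probe sets), and recovery depended on the noise drawn. With each probe set's unshrunken residual SD, tried first, 1 of 67 changes of 0.5, 14 of 67 of 1 and 55 of 66 of 2 were recovered, and 0 of 70 calls were false. With limma's shrunken SD, added after that outcome, 40 of 67, 67 of 67 and 66 of 66 were recovered, and 36 of 209 calls (17.2%) were false. Changes of 0.5 can thus be missed, and calls near the threshold may be less certain than it implies.

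The members and gene lists were chosen with earlier results of these data known. Named were all IFIT probe sets, list genes past the threshold or else the 2 of largest change, the 8 nearest profiles, and STAT2, IRF7 and IFIT1B. Probe, promoter and protein sequences were not used here.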

Additional observations from a re-analysis of the deposited data

How the results depend on the processing

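The family's mean difference stayed within 1 SD of its value in all 9 alternatives, from -0.65 to -0.46 when 1 replicate was left out. Leaving out 1 of 3 pairs cannot move a mean by 1 SD over those pairs, and leaving out dim probe sets gave the same value. This contrast also chose the genes, so nothing is read from that range. The count of 45 probe sets past the treatment threshold, 32 higher and 13 lower, was 0 without the replicate block (143 at an unadjusted p under 0.05, limma), 27 after quantile normalization (5 lower), 27 after cyclic loess (3 lower), 52 after median centring (19 lower), 11 without a variance trend and 206 with RNA quality as a covariate. It ran from 35 to 328 when 1 replicate was left out, the highest without replicate 3. The count between replicates, 21188, was 10253 with RNA quality as a covariate and 9045 to 21815 when 1 replicate was left out. The IFIT probe sets in it were 7 of 10 with that covariate, where 19.4% of all probe sets passed. They were 9, 6 and 7 without replicates 1, 2 and 3, where 41.3%, 28.6% and 17.1% of all probe sets passed. The effector count of 3 was 0 without the replicate block, 0 without a variance trend (20 at an unadjusted p under 0.05, limma), 1 after quantile normalization, 1 after cyclic loess, 1 with the mean of probe sets and 10 with RNA quality as a covariate, and ran from 1 to 10 when 1 replicate was left out. The causes were not tested. The effector median ran from -0.44 to -0.23 over 12 alternatives. A robust variance prior, chosen after seeing the data, gave 43, 21289 and 3 for these counts. Of the IFIT probe sets, 2 of IFIT2 changed sign in some alternatives, up to 0.05 for the _x_at version and 0.08 for MmugDNA.13561.1.S1_at.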
